A study of Mus musculus with 12 samples.

Results

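Tetraspanins are small membrane proteins, and their genes were taken here by symbol: every gene of the deposited expression table named Tspan followed by a number, together with Cd9, Cd37, Cd53, Cd63, Cd81, Cd82 and Cd151. This gave 26 genes of the 29462 in the table. Their RNA was measured in 12 libraries of primary smooth muscle cells of the aorta. Of these, 6 (WT1 to WT6) came from the C57BL/6J strain and 6 (KO1 to KO6) from animals in which CSE, the hydrogen sulfide enzyme encoded by Cth, was knocked out in the whole body. Cells of both genotypes had received angiotensin II (Ang II), a vasoconstrictor peptide, at 1 uM for 24 h, so the 1 comparison is KO against WT in treated cells. The age and sex of the mice, and whether the 6 libraries of a genotype are separate cultures or animals, are not in the labels, so the p-values below speak to the spread among 12 libraries, part or all of which could be technical.

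Levels are FPKM, fragments normalised to gene model length and to the mapped fragments of the library, which allows levels of different genes to be compared per length; depth in reads is unknown. The sum of FPKM per library lay between 255538 and 281432 and was lowest in KO6. Cth itself was at 0 to 0.08 FPKM in WT and 0 to 0.02 in KO (exact permutation p = 0.14, two-sided), so the genotype labels cannot be checked on it. The smooth muscle identity given by the labels was only partly matched: of 10 smooth muscle markers 4 could be tested, and Myh11, the defining smooth muscle myosin, averaged 0.0133 FPKM over the WT and 0.00833 over the KO libraries, although Acta2 averaged 120.1 and 102. KO5 and KO6 stood apart from the other KO libraries, and for many members their values are given separately. Values of listed partner and marker genes are mostly means over all KO libraries.

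Tetraspanins gather integrins, immunoglobulin-type proteins, proteases and one another into membrane domains called the tetraspanin web. Through these contacts they act in adhesion, fusion, protein transport and the formation of extracellular vesicles, of which Cd9, Cd63 and Cd81 are common markers. In the vessel wall members such as Cd9, Cd81 and Cd151 are known from smooth muscle and endothelial cells, and Cd37 and Cd53 from leukocytes.

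The sequences at the RefSeq starts of 4 genes are shown. These genes are the members that had a genotype difference of 1 or more in log2(FPKM + 1), as 9.74% of all tested genes did. Each sequence is the RefSeq window of build GRCm38.p6 from 250 bases before to 50 bases after the annotated start. It is written from 5′ to 3′ on the strand of the gene, with every CG dinucleotide in capitals. Tspan8 lies on the plus strand (chr10:115817034-115817333), Tspan17 on the plus strand (chr13:54789155-54789454), Tspan11 on the plus strand (chr6:127887372-127887671) and Tspan12 on the minus strand (chr6:21852484-21852783).
Tspan8: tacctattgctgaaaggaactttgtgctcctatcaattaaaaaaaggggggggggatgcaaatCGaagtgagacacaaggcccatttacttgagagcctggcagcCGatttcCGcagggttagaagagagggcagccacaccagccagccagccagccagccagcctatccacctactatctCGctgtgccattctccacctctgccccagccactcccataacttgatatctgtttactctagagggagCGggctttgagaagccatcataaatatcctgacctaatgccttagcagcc
Tspan17: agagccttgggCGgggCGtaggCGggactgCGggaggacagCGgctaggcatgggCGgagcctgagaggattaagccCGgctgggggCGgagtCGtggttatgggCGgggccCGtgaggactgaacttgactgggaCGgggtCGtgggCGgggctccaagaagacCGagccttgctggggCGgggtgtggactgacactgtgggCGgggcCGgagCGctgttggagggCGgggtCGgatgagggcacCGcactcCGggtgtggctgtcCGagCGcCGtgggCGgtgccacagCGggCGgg
Tspan11: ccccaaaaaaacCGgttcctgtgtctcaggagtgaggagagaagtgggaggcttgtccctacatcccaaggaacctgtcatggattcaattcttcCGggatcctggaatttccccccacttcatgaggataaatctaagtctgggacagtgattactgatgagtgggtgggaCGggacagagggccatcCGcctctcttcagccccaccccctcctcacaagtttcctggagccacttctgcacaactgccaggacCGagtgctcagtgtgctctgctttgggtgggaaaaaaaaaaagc
Tspan12: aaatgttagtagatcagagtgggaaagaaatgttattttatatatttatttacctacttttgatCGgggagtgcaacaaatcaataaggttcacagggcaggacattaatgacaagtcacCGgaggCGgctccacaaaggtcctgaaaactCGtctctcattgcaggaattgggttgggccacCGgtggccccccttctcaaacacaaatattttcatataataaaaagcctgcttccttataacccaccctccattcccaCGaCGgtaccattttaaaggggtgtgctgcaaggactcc

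The capitals set Tspan17 apart from the other 3 windows: it held 29 CG dinucleotides, against 5 in Tspan8, 5 in Tspan11 and 7 in Tspan12. The median over the 32851 windows of the RefSeq table was 7. The GC box motif GGGCGG, searched on both strands and overlapping a CG wherever it occurs, was found 10 times in the Tspan17 window and not at all in the other 3, while 35.7% of all windows held it. TATAAA, also searched on both strands, occurred in 13.6% of all windows and once in that of Tspan12. Neither the AP-1 motif TGANTCA nor the E-box CACGTG, searched likewise, was in these 4 windows, while 7.81% and 7.15% of all windows held them. Windows were found for 25 of the 26 members, all but Tspan18, and for some genes there were several; the 35 windows held from 2 to 43 CG, with a median of 11. A match is only a run of letters, and neither methylation nor factor binding was measured in these libraries.

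Of the 26 tetraspanins, 18 reached 1 FPKM in at least 6 libraries and were tested, and 8 were below that level. Among the 18, 9 were higher and 7 lower in KO at an adjusted p of 0.05 (limma with Benjamini-Hochberg adjustment over all genes tested), and Cd81 and Tspan6 did not pass. Much of the transcriptome differed between these libraries: 63.5% of the 11831 genes tested were called, 32.6% higher and 30.9% lower in KO. Of the 18 members, 6 were at 1 FPKM or more in all libraries of 1 genotype only (Tspan8, Tspan2 and Tspan15 in WT, Tspan17, Tspan11 and Tspan12 in KO), so passing the threshold already required them to differ. Among the 12 at 1 FPKM or more in every library, 6 were higher, 4 lower and 2 not called. The median difference over the 18 was 0.19 on the log2(FPKM + 1) scale, beside 0.01 over all tested genes. In 14 of the 18 the ranges of the genotypes were fully apart, as in 46.4% of all tested genes; these shares are set side by side as descriptions, since the members were chosen with earlier results of these data known.

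**Figure D1:**
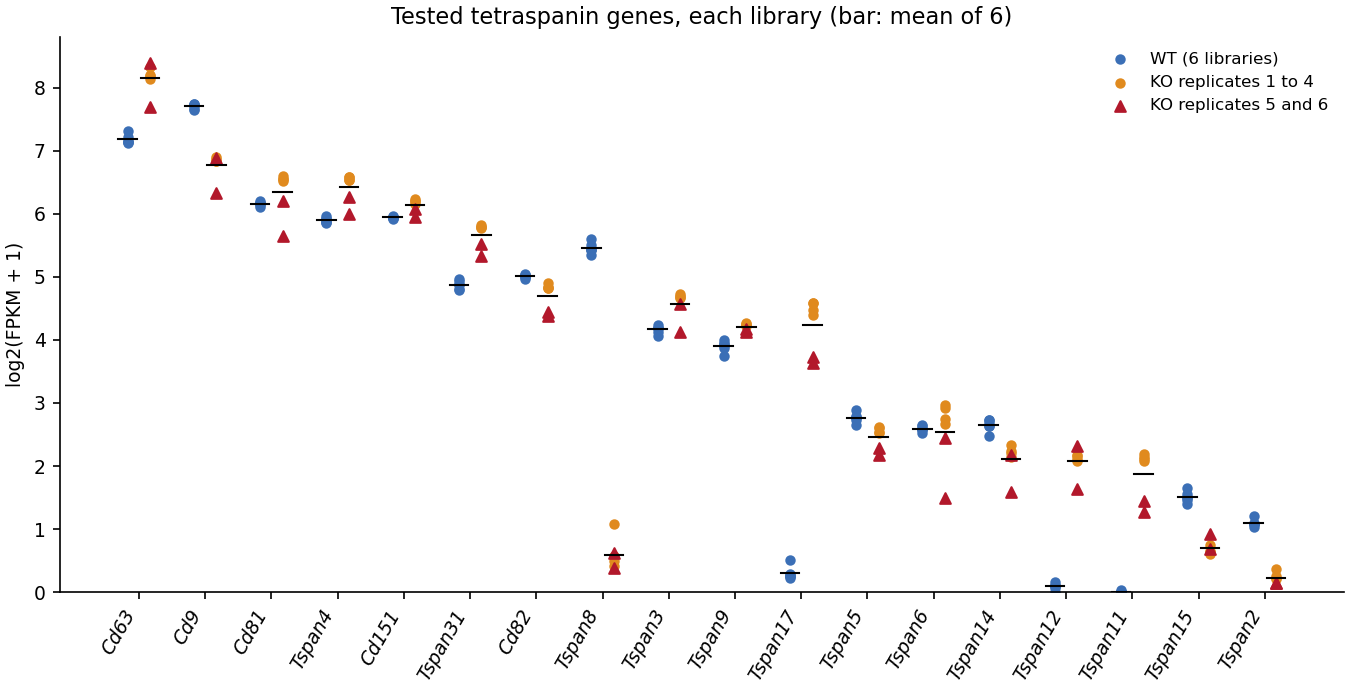
Level of each of the 18 tested tetraspanin genes as log2(FPKM + 1), in order of mean FPKM; blue points are the 6 WT libraries, orange points KO1 to KO4, red triangles KO5 and KO6, and black bars the means of 6 libraries. Tspan8 is high in WT alone and Tspan17 in KO alone, while Cd63 and Cd9 change places at the top.

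The 5 genes with the highest mean levels were Cd63, Cd9, Cd81, Tspan4 and Cd151, all above 50 FPKM on average. They made up 77.9% ± 0.203 of the summed tetraspanin FPKM in WT and 80.2% ± 1.31 in KO (SD, n = 6 each). The sum itself was 696 ± 18 FPKM in WT and 791 ± 109 in KO, where the single libraries held 820.3 to 874 in KO1 to KO4, 805 in KO5 and 574 in KO6. The summed level was therefore highest in KO1 to KO4 and lowest of all libraries in KO6. In bulk libraries such as these, a smaller number of expressing cells and less RNA per cell cannot be told apart.

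**Figure D2:**
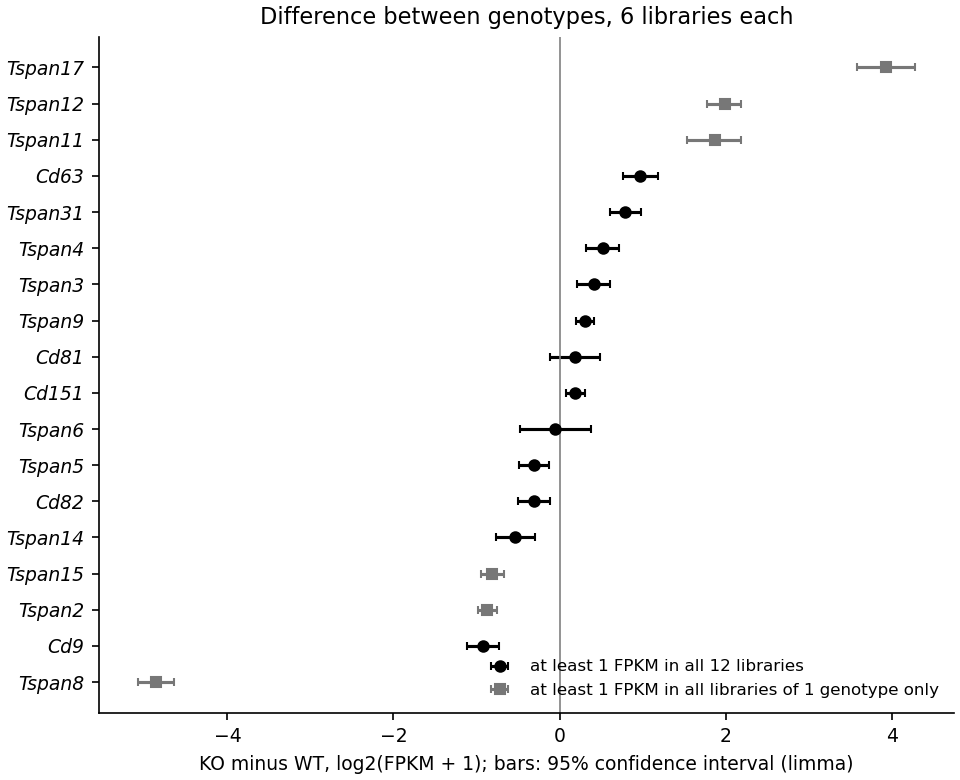
Difference KO minus WT on the log2(FPKM + 1) scale for each tested member, with 95% confidence intervals from limma; grey squares mark members at 1 FPKM or more in all libraries of 1 genotype only. The points run from -4.86 for Tspan8 to 3.93 for Tspan17, and the intervals of Cd81 and Tspan6 contain 0.

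Cd63, which cycles between the surface, late endosomes and lysosomes and is sorted into exosomes, was the most abundant member in KO. Its lowest, median and highest values were 138.4, 141 and 157.26 FPKM in WT and 206.12, 292 and 334.1 FPKM in KO. All KO libraries lay above all WT libraries, with KO6 the lowest and KO5 the highest of them. The mean rose 1.99-fold, from 144 ± 7.18 to 287 ± 44.5 FPKM (log2 difference 0.97 ± 0.098 SE, limma adjusted p = 1.4e-06).

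Cd9, a surface tetraspanin needed on the egg for fusion with sperm and a regulator of adhesion in many cells, moved the other way. The WT libraries held 198.93, 209.5 and 213.71 FPKM as lowest, median and highest value, and the KO libraries 79.61, 115 and 118.86. The genotypes were apart in every library, and KO6 was well below the other KO libraries, which spanned 113.68 to 118.86 without it. Mean Cd9 fell 1.89-fold, from 208 ± 5.99 to 109.8 ± 14.9 FPKM (log2 difference -0.92 ± 0.088 SE, limma adjusted p = 8.5e-07).

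Cd63 was thus below Cd9 in each WT library and above it in each KO library. The ratio of Cd63 to Cd9 FPKM was 0.659, 0.702 and 0.736 (lowest, median, highest) in WT and 2.41, 2.58 and 2.85 in KO. A ratio within a library does not depend on how libraries are scaled, and in KO5 and KO6 it was 2.85 and 2.59, near the 2.41 to 2.69 of the other KO libraries. Cd9 made up 29.8% ± 0.548 of the summed tetraspanin FPKM in WT and 13.9% ± 0.396 in KO, and Cd63 20.7% ± 0.599 and 36.3% ± 2.69.

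Cd81, the other common vesicle marker, did not pass with all libraries. It was at 67.86, 70.8 and 73.03 FPKM in WT and 49.05, 91.6 and 95.97 in KO, so the genotypes overlapped. KO1 to KO4 lay at 90.92 to 95.97, above WT, while KO5 at 72.93 was within the WT range and KO6 at 49.05 below it. The log2 difference was 0.19 (95% interval -0.11 to 0.49, limma adjusted p = 0.26). Without KO6 it was 0.33 (adjusted p = 6.5e-04) and with KO1 to KO4 alone 0.40 (adjusted p = 3.1e-08); over the alternatives tried the adjusted p ran from 3.1e-08 to 0.68.

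Cd151, which binds laminin-binding integrins, and Cd82, known as a suppressor of metastasis, had the smallest differences among the called members with CD names. Cd151 was at 59.6, 60.4 and 61.81 FPKM in WT and 60.86, 71.5 and 74.42 in KO, and only KO6 fell within the WT range. Its mean was 1.15-fold higher in KO (log2 difference 0.19 ± 0.053 SE, limma adjusted p = 0.0058). With quantile normalization the difference was 0.075 and did not pass (adjusted p = 0.17, the highest of a range from 6.4e-07). Cd82 was at 30.2, 31.3 and 31.88 FPKM in WT and 19.84, 27.3 and 28.99 in KO, every KO library below every WT library. Its mean was 1.23-fold lower (log2 difference -0.31 ± 0.09 SE, limma adjusted p = 0.0092), of which -0.16 was left with KO1 to KO4 alone (adjusted p = 1.7e-04, in a range of 1.7e-04 to 0.02 over the alternatives).

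Tspan8, a tetraspanin of epithelia and carcinomas, had the largest difference of the tested members on the log2(FPKM + 1) scale. Its lowest, median and highest values were 39.51, 42.2 and 47.54 FPKM in WT and 0.31, 0.445 and 1.11 in KO, where KO1 was the highest. In WT it took 6.17% ± 0.233 of the summed tetraspanin FPKM, and in KO 0.0658% ± 0.0313. The log2 difference was -4.86 ± 0.1 SE (limma adjusted p = 3.3e-13). The gene lies on chromosome 10 from 115816832 to 115849893 on the plus strand of GRCm38 (GENCODE M21). The window printed above begins at 115817034, inside this gene model. It thus covers the RefSeq start and not the GENCODE one. Of 12 epithelial and mesothelial markers 5 could be tested, of which 3 fell and 2 rose (Upk3b and Wt1, at 1 FPKM or more in KO libraries alone). The summed level of the list was 146 to 155 FPKM in the WT libraries and 44.6 to 68.1 in KO. Within that list Cdh1 (E-cadherin) averaged 65 FPKM over the WT and 0.86 over the KO libraries, while Epcam, Krt8, Krt18, Krt7, Krt5, Krt14 and Lrrn4 were below 1 FPKM in all libraries. Krt19 fell less, from 78.5 to 50.1 FPKM on average (limma adjusted p = 9.4e-06), and held most of the sum left in KO. Msln fell from 5.96 to 3.61 FPKM on average, with KO1 to KO4 at 4.73 to 4.84 and KO5 and KO6 at 1.13 and 1.38. The part of epithelial cells in the Tspan8 result was not tested.

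The C8 tetraspanins, named for the number of cysteines in their large extracellular loop, escort the protease ADAM10 to the surface and steer which substrates it cuts. In this group 1 gene rose steeply and 3 fell. Tspan17 was at 0.17, 0.2 and 0.42 FPKM in WT and 11.45, 20.6 and 22.93 in KO, with KO5 and KO6 at 12.31 and 11.45 and the other KO libraries at 19.95 to 22.93. Its mean rose 79.1-fold, from 0.233 ± 0.0929 to 18.4 ± 5.22 FPKM (log2 difference 3.93 ± 0.16 SE, limma adjusted p = 2.0e-10). It lies on chromosome 13 from 54789377 to 54796776 on the plus strand of GRCm38, and the CG-rich window printed above is the one at its start. Such a window did not set Tspan17, with 29 CG, apart from the C8 genes that fell. The window of Tspan5 held 43 CG, that of Tspan15 29, and those of Tspan14 3 and 33.

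Tspan5 was at 5.28, 5.83 and 6.38 FPKM in WT and 3.49, 4.79 and 5.16 in KO, without overlap. The log2 difference was -0.31 ± 0.082 SE (limma adjusted p = 0.0048) and was smaller, -0.19, with KO1 to KO4 alone (adjusted p = 0.0021, in a range of 0.0015 to 0.013). Tspan14 was at 4.59, 5.32 and 5.66 FPKM in WT and 2.01, 3.58 and 4.02 in KO, the lowest being KO6, and its mean fell 1.56-fold (log2 difference -0.53 ± 0.11 SE, limma adjusted p = 7.3e-04). Tspan15, which promotes cutting of N-cadherin by ADAM10, was at 1.64, 1.83 and 2.13 FPKM in WT and 0.52, 0.59 and 0.89 in KO, a 2.92-fold lower mean (log2 difference -0.81 ± 0.064 SE, limma adjusted p = 1.5e-07). All 3 were lower in each KO library than in any WT library. Tspan33, the remaining C8 gene in the table, was at 0 to 0.01 FPKM in WT and 0 to 0.08 in KO (exact permutation p = 0.041, adjusted p = 0.21).

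The makeup of the C8 group therefore differed between the genotypes in each library. Tspan17 accounted for 1.33% to 3.3% of the summed C8 FPKM in the WT libraries and for 59.6% to 71.6% in the KO libraries. Tspan5 went from 44.1% ± 2.54 to 17.1% ± 1.86 and Tspan14 from 40% ± 2.47 to 12.7% ± 2.2. The sum of the group was 13.2 ± 0.45 FPKM in WT and 27 ± 6.31 in KO, at 28.9 to 32.2 in KO1 to KO4 and 20.7 and 17.6 in KO5 and KO6. Adam10 itself averaged 53.3 ± 1.72 FPKM over the WT and 41.7 ± 7.15 over the KO libraries (log2 difference -0.37, limma adjusted p = 0.008), with 38.34 and 28.59 in KO5 and KO6.

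**Figure D3:**
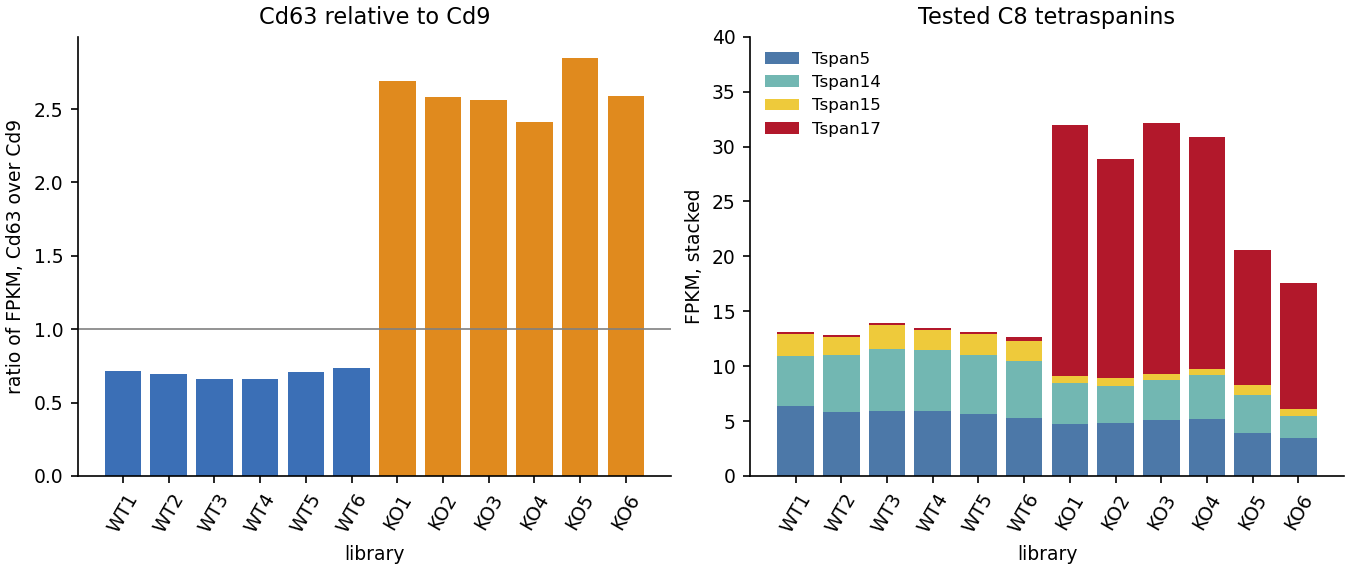
Left, ratio of Cd63 to Cd9 FPKM in each library, with a line at 1; right, FPKM of the 4 tested C8 tetraspanins stacked in each library. The ratio is below 1 in all WT and above 1 in all KO libraries, and Tspan17 forms most of each KO column, which is lower in KO5 and KO6 (20.7 and 17.6 FPKM for the whole group).

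Tspan12 and Tspan11 were near 0 in WT and present in KO. Tspan12, a coreceptor of norrin and Frizzled-4 in retinal vessels, was at 0, 0.07 and 0.12 FPKM (lowest, median, highest) in WT and 2.09, 3.38 and 3.99 in KO (log2 difference 1.99 ± 0.095 SE, limma adjusted p = 8.8e-10). Tspan11, a relative of Cd151, was listed at 0 in 5 WT libraries and at 0.02 in the other, and at 3.54, 3.31, 3.42, 3.22, 1.73 and 1.4 FPKM in KO1 to KO6. The KO libraries thus formed a higher set of 4 and a lower pair, KO5 and KO6, all above WT (log2 difference 1.87 ± 0.15 SE, limma adjusted p = 1.7e-07). For genes this low the size of a log2 difference depends on the pseudocount: with 0.1 in place of 1 it was 4.36 for Tspan12 and 4.72 for Tspan11.

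Tspan9, known from megakaryocytes and platelets, is the genomic neighbour of Tspan11 on chromosome 6, 7.42 kb away on the opposite strand in GRCm38. It was at 12.44, 14.1 and 14.99 FPKM in WT and 16.43, 17.6 and 18.36 in KO, without overlap but 1.26-fold apart (log2 difference 0.31 ± 0.052 SE, limma adjusted p = 1.7e-04). KO5 and KO6, at 17 and 16.43 FPKM, were close to the other KO libraries here. Per length, the WT level was 14 ± 0.865 FPKM for Tspan9 and 0.00333 ± 0.00816 for Tspan11.

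Tspan4, which drives the formation of migrasomes on the trailing fibres of moving cells, lies 3.77 kb from Cd151 on chromosome 7, on the same strand. It was at 56.56, 58.7 and 61.44 FPKM in WT and 62.9, 92.1 and 95.18 in KO. KO1 to KO4 formed the upper end at 92.03 to 95.18, and KO6 lay just above the highest WT library. The mean rose 1.46-fold (log2 difference 0.52 ± 0.094 SE, limma adjusted p = 3.1e-04). Models of Tspan4 and of Chid1 on the opposite strand share 292 exon bases, and Chid1 averaged 2.41 FPKM over the WT and 2.34 over the KO libraries. The part of Chid1 reads in the Tspan4 values was not tested.

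Tspan31, first found as a gene amplified in sarcoma next to Cdk4, was at 26.68, 28.4 and 30.11 FPKM in WT and 39.12, 53.9 and 55.59 in KO. It was higher in all KO libraries, with KO5 and KO6 the lowest of them at 44.85 and 39.12 FPKM. The mean rose 1.77-fold (log2 difference 0.79 ± 0.084 SE, limma adjusted p = 2.5e-06). Its exons overlap those of Cdk4, the cell cycle kinase on the opposite strand, by 641 bases. Cdk4 averaged 85.2 ± 2.26 FPKM over the WT and 113 ± 9.97 over the KO libraries (limma adjusted p = 4.7e-05). No source used here tells whether counting took account of strand, so reads of the shared exons cannot be assigned to either gene and the Tspan31 value is uncertain. Cdk4 was highest in KO5, at 131.95 FPKM, where Tspan31 was below KO1 to KO4. Both genes were higher in each KO library than in any WT library, Cdk4 at 106.52 to 131.95 against 83.28 to 88.59 FPKM. The part of Cdk4 reads in the Tspan31 values was not tested.

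Tspan3, which associates with claudin-11, was at 15.64, 17.2 and 17.91 FPKM in WT and 16.37, 24.5 and 25.4 in KO. Only KO6 lay within the WT range. The mean was 1.36-fold higher (log2 difference 0.41 ± 0.093 SE, limma adjusted p = 0.0018), and the call was lost with an exact rank-sum test (adjusted p = 0.066, the highest of a range from 4.3e-08). Tspan2, a tetraspanin of oligodendrocytes also known from vascular smooth muscle, was at 1.05, 1.12 and 1.31 FPKM in WT and 0.1, 0.165 and 0.29 in KO, 6.63-fold lower (log2 difference -0.87 ± 0.054 SE, limma adjusted p = 1.2e-08). No KO library of Tspan2 came near the lowest WT library.

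Tspan6, an X-linked member, was not called: its WT libraries held 4.75, 4.99 and 5.29 FPKM and its KO libraries 1.81, 5.52 and 6.81. KO1 to KO4 were all above the highest WT library, and KO5 and KO6, at 4.42 and 1.81, below the lowest. The log2 difference was -0.05 (95% interval -0.48 to 0.38, limma adjusted p = 0.84) with all libraries and 0.24 with KO1 to KO4 alone (adjusted p = 0.0027, the lowest of a range up to 0.91).

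Among the 8 members below the level for testing, Tspan7 and Tspan18 were higher in KO. Tspan7, whose human counterpart is linked to intellectual disability, was listed at 0 in 4 WT libraries and at 0.01 in the other two, and lay at 0.28 to 0.49 FPKM in KO. Tspan18, known from endothelial calcium entry, was likewise at 0 to 0.01 FPKM in WT and at 0.02 to 0.08 in KO. Both reached 0.0022, the smallest p the exact permutation test of 6 against 6 libraries allows (two-sided, adjusted p = 0.022). Of the 17229 genes tested in this way, 11% passed. Tspan13 was at 0.08 to 0.18 FPKM in WT, 0.25 to 0.47 in KO1 to KO4 and 0.27 and 0.02 in KO5 and KO6 (exact permutation p = 0.039, adjusted p = 0.2); without KO6 it passed (exact permutation, adjusted p = 0.023, in a range of 0.023 to 0.31). Tspan1, an epithelial member, was at 0.04 to 0.05 FPKM in WT and 0 to 0.07 in KO (exact permutation p = 0.16).

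The leukocyte tetraspanins stayed low in both genotypes. Cd53 was at 0.54, 0.765 and 1.17 FPKM in WT and 0.26, 0.795 and 1.15 in KO, with full overlap (exact permutation p = 0.68). Cd37 lay at 0.01 to 0.2 FPKM in WT and 0.04 to 0.19 in KO (exact permutation p = 0.72), where its exons share 13 bases with Tead2 on the opposite strand, and Tspan32, of blood-forming cells, at 0.04 to 0.16 and 0.01 to 0.07 (exact permutation p = 0.12). Ptprc, the pan-leukocyte marker CD45, averaged 0.015 FPKM in both genotypes. Of 12 macrophage and leukocyte markers 8 stayed under 1 FPKM in all libraries, and the summed level of the list was 39.1 to 47.2 FPKM in WT and 41.4 to 57.3 in KO. Cd14 made up 39.5 and 39.9 FPKM of these sums on average, and of the 3 markers tested Cd68 and Csf1r rose, Csf1r reaching 1 FPKM in KO libraries alone. Lyz2, below the level for testing, averaged 0.1 FPKM in WT and 1.07 in KO and was higher in KO (exact permutation, adjusted p = 0.022).

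KO5 and KO6 were lower than the other KO libraries in most members. Of the 18 tested, KO6 was below each of KO1 to KO4 in 17 and above all 4 in none, with Tspan15 the 1 that lay between them; over all tested genes 47.5% were below and 35.6% above. KO5 was below all 4 in 12 members, above them in 3 (Cd63, Tspan12 and Tspan15) and between them in 3, where 42.1% of all tested genes were below and 38.7% above. The pair averaged 46.4% of the mean of KO1 to KO4 for Tspan11, 50.9% for Tspan6, 54.7% for Tspan17 and 65.5% for Cd81, but 91.3% for Cd63 and 93.3% for Tspan9.

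Other genes moved with these 2 libraries. Mki67, the proliferation marker, was at 14.18 to 18 FPKM in KO1 to KO4, 31.46 in KO5 and 119.95 in KO6, and at 20.13 to 27.48 in WT. The summed level of 9 fibroblast markers was 1177 to 1274 FPKM in KO1 to KO4, 506 and 723 in KO5 and KO6, and 831 to 880.2 in WT. Its genes did not move together: with all libraries 7 were tested, 4 higher, 1 lower and 2 not called. In WT and in KO1 to KO4, Col1a1 was at 473.07 to 502.53 and 666.86 to 738.65 FPKM. Col1a2 was at 289.64 to 308.65 and 201.48 to 222.16, and Col3a1 at 0.44 to 0.71 and 140.79 to 154.74. The summed level of 10 smooth muscle markers was 223 to 230.4 FPKM in KO1 to KO4, 297 and 340.1 in KO5 and KO6, and 176 to 202 in WT. The 4 tested genes of that sum went different ways. Acta2 and Smtn were below WT in KO1 to KO4, Acta2 at 75.28 to 85.09 against 111 to 140.4 FPKM. Cald1 and Tpm2 were above WT in all KO libraries, Cald1 at 85.11 to 95.47 against 27.37 to 29.16 FPKM. The part of proliferation or of cell makeup in the tetraspanin values was not tested. With KO1 to KO4 alone, 77.1% of all tested genes were called, and 11 members were higher and 7 lower.

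**Figure D4:**
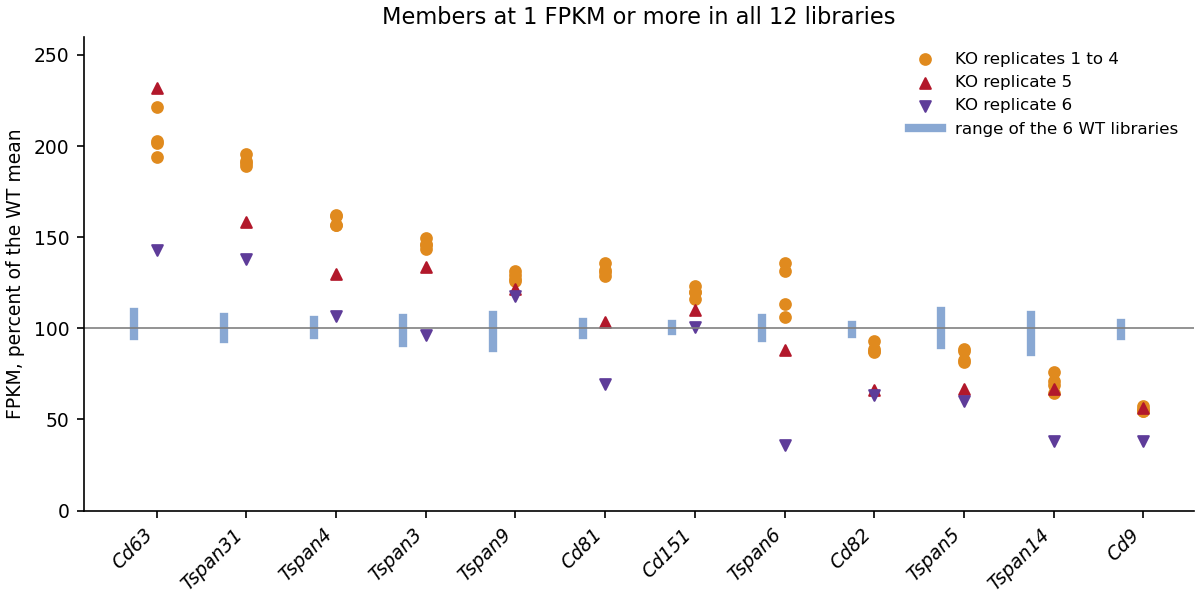
FPKM of each KO library as percent of the WT mean for the 12 members at 1 FPKM or more in all libraries; orange points are KO1 to KO4, triangles KO5 and KO6, and blue bars the range of the 6 WT libraries. KO6 has the lowest KO value for each of the 12 genes, down to 36.1% of the WT mean for Tspan6.

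Genes for the known partners of tetraspanins are described by lists, each set out with earlier results of these data known. Their counts stand beside 32.6% of all tested genes higher and 30.9% lower in KO, and their medians beside 0.01 over all tested genes. Upk3b, Igsf3 and Icam1 reached 1 FPKM in KO libraries alone and Btc in WT libraries alone, so they had to differ to be tested, and Cdh1 and Itgb4 reached it in all WT but only 2 KO libraries. The counts and medians of their lists are therefore descriptions.

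Of 3 tetraspanins in the table outside the naming rule, Rom1 and Upk1b were tested and rose, and Upk1a averaged 0.142 FPKM over the WT and 0.122 over the KO libraries (exact permutation p = 0.79, adjusted p = 1). Rom1, a photoreceptor disc protein, went from 7.59 ± 0.669 to 16.2 ± 1.36 FPKM (log2 difference 1.00, limma adjusted p = 3.4e-08). Upk1b, a uroplakin of the bladder, went from 3.23 ± 0.404 to 4.89 ± 1.08 FPKM (log2 difference 0.46, limma adjusted p = 0.0037), with KO5 and KO6 near WT at 3.7 and 3.58. Upk3b, of the family that pairs with Upk1b, rose from 0.448 ± 0.0828 to 2.1 ± 0.346 FPKM (limma adjusted p = 2.6e-08). Tm4sf1, of the L6 family with a similar shape, averaged 223 ± 5.77 FPKM over the WT and 253 ± 44.2 over the KO libraries and did not pass (limma adjusted p = 0.22), with 270.89 to 286.56 in KO1 to KO4 and 169.29 in KO6, without which it passed as higher.

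Among the integrin genes that tetraspanins bind, 7 of 10 were tested, of which 2 rose and 4 fell, with a median difference of -0.27 on the log2(FPKM + 1) scale. Itga5, the fibronectin receptor subunit, rose from 15.9 to 36.4 FPKM (limma adjusted p = 6.1e-09) and Itgav from 18.6 to 22.8 (limma adjusted p = 0.007). In KO6, however, Itgav was at 17.8 FPKM, below the lowest WT library at 17.85. Itga3, the laminin receptor subunit to which Cd151 binds most tightly, fell from 28.2 ± 0.683 to 10.8 ± 1.23 FPKM (log2 difference -1.31, limma adjusted p = 2.6e-09). Itgb3 and Itgb4 fell as well, from 9.53 to 4.99 and from 2.01 to 0.792 FPKM. Below the level for testing, Itga6 and Itga7, both subunits of laminin receptors, averaged 0.27 and 0.152 FPKM in WT and 1.22 and 0.723 in KO, and were higher in KO (exact permutation, adjusted p = 0.022 each). Itga3 was thus well below its WT level in all KO libraries, while Cd151 was above its WT range in 5 of 6.

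Of the immunoglobulin-type partners 3 of 4 were tested, and their median difference was 0.96. Ptgfrn, which binds Cd9 and Cd81 directly, rose from 3.72 to 8.22 FPKM (limma adjusted p = 9.8e-07) and Igsf3 from 0.415 to 2.71 (limma adjusted p = 1.8e-08). Igsf8, the other close partner of Cd9 and Cd81, fell from 15.4 to 11.7 FPKM (limma adjusted p = 8.4e-04).

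Other surface partners gave 3 higher and 5 lower of 10 tested, with a median of -0.65. Pdpn (podoplanin), a mucin-type glycoprotein that binds Cd9, was at 1.71 to 2.42 FPKM in WT and 99.08 to 120.97 in KO (log2 difference 5.13 ± 0.073 SE, limma adjusted p = 1.5e-14). Icam1 rose from 0.608 to 5.89 FPKM (limma adjusted p = 4.4e-09) and Egfr from 8.54 to 20.9 (limma adjusted p = 6.1e-09). Zdhhc2, an enzyme that attaches palmitate to Cd9 and Cd151, fell from 3.78 to 1.21 FPKM (limma adjusted p = 6.1e-09), Met from 40 to 18.1 and Cd47 from 34.1 to 17.1.

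The list of ADAM proteases, their regulators and substrates bears on the C8 group: 12 of 14 were tested, 2 rose, 7 fell, and the median was -0.30. Among the 7 were cadherins that ADAM10 cuts. Cdh1 fell from 65 ± 1.69 to 0.86 ± 0.314 FPKM (limma adjusted p = 1.2e-13) and Cdh2 (N-cadherin) from 125 ± 4.59 to 28.5 ± 1.94 (limma adjusted p = 1.9e-12). The growth factor Btc fell from 1.14 to 0.23 FPKM, and the membrane-bound chemokines Cx3cl1 and Cxcl16 rose from 1.59 to 3.57 and from 4.74 to 11.7. Adam17, the relative of Adam10 that C8 tetraspanins do not escort, averaged 12 ± 0.463 FPKM over the WT and 11.1 ± 0.773 over the KO libraries and did not pass (limma adjusted p = 0.1).

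For Tspan12, the list of receptor complex genes also held Ctnnb1 (beta-catenin), which is not part of the receptor itself. The list gave 1 higher, 1 lower and 2 not called of 4 tested, with a median of -0.061. The 1 lower gene was Ctnnb1, and Fzd4 and Lrp6 were not called. Lrp5 rose from 7.7 to 13 FPKM (limma adjusted p = 1.9e-05), and Fzd4 averaged 2.18 FPKM over the WT and 2.31 over the KO libraries. Ctnnb1 fell from 219 to 125 (limma adjusted p = 1.3e-04), with 138.82 to 144.09 in KO1 to KO4 and 103.72 and 77.28 in KO5 and KO6.

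Genes of exosome formation split evenly: all 22 were tested, 8 rose and 8 fell, and the median was -0.015. Smpd3, the neutral sphingomyelinase, fell from 21.9 ± 1.19 to 8.05 ± 1.66 FPKM (limma adjusted p = 8.2e-08). Rab27a and Rab27b, which bring vesicle-holding endosomes to the surface, fell from 7.56 to 1.54 FPKM (limma adjusted p = 3.9e-11) and from 6.84 to 3.4 (limma adjusted p = 2.5e-07). Chmp4b of the ESCRT-III complex rose from 78.8 to 111 FPKM (limma adjusted p = 1.1e-07), the syndecan Sdc3 from 26.4 to 50.9 and Pdcd6ip (ALIX) from 19.3 to 25.7. With quantile normalization 5 genes of this list were higher in place of 8. Vesicles themselves were not measured.

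**Figure D5:**
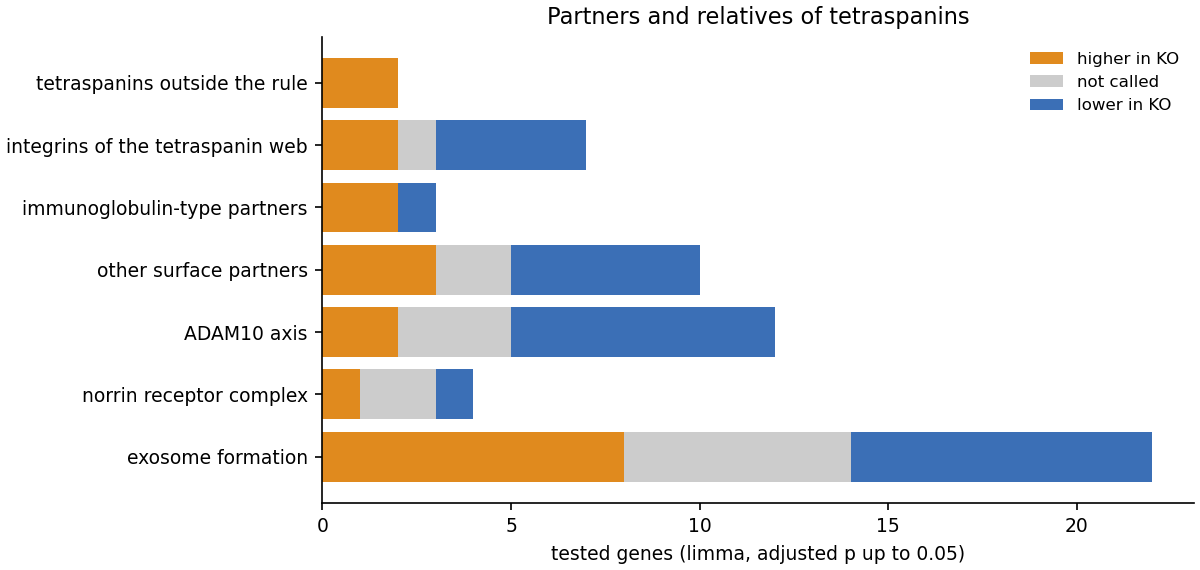
Number of tested genes higher in KO (orange), not called (grey) and lower in KO (blue) in each list of tetraspanin partners with more than 1 tested gene. The exosome list splits into 8 higher and 8 lower, and the ADAM10 list holds 7 lower against 2 higher.

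In the authors' deposited table of the same contrast, 9 of the 26 members were marked significant, beside 15% of its genes. The authors' deposited table marked Tspan7, Tspan11, Tspan12, Tspan17, Tspan18 and Tspan33 as higher in KO and Tspan2, Tspan8 and Tspan15 as higher in WT. Cd63, Cd9, Tspan31 and Tspan4 were not marked in the authors' deposited table, although it lists a q-value of 0.0 for each. Their log2 ratios of WT over KO there were -0.99 (a ratio of 0.5), 0.92, -0.83 and -0.54, in that order. Among the marked members the smallest absolute log2 ratio was 1.55, for Tspan15. An absent mark thus does not stand for a high q-value, and the marks cannot be set against the limma calls as if both used 1 threshold.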

How the data were processed

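RNA was measured in 12 libraries, 6 per genotype, all treated with Ang II. The authors deposited 1 table of 29462 genes with FPKM per library to 2 decimals, per the file headers. It also holds the authors' fold (a ratio of WT over KO), its log2, and a p-value and q-value per gene from a test not given in the sources used here. Per the submitters' processing notes the tools were HISAT2 2.0.4, StringTie 1.3.4d, cutadapt 1.9, edgeR and DESeq2 and the build mm9; what each was used for is not stated. FPKM is relative to the library, so it shows shares of RNA, and read depth, and with it counting error, is unknown. Gene positions are those of GENCODE M21 (GRCm38) and promoter windows those of RefSeq (GRCm38.p6), not of the submitters' build.

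A gene was tested if 6 or more of the 12 libraries reached 1 FPKM. The test was limma 3.58.1 (R 4.3.3) with a variance trend on log2(FPKM + 1), two-sided, and Benjamini-Hochberg adjustment over all 11831 genes at 0.05. Fold changes in the text are ratios of mean FPKM, and log2 differences are on the log2(FPKM + 1) scale, which understates changes of low genes. The 17229 lower genes with a value above 0 were tested by an exact permutation of the mean log2 difference over every assignment of libraries to genotypes, adjusted over those genes. No 2 libraries held the same values. Alternatives were pseudocount, filter, scaling, test, replicate block and left-out libraries.

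The members, lists and tests were chosen with earlier results of these data known. Described with all values were members differing by 1 or more on the log2 scale, the 5 with the highest mean FPKM, the tested C8 genes and uncalled members at 5 FPKM or more; the remaining members were then given values as well. From each partner list up to 3 called genes with the smallest p in each direction were named; Adam10, Adam17, Fzd4, Tm4sf1, Upk1a, Itga6, Itga7 and Lyz2 were added after their values were seen. Promoter windows are printed in place of the protein sequences first intended, which are not used here. Lists of B and T cell markers (6 genes in the table) and endothelial markers (8 genes) were under 1 FPKM in all libraries, and of 5 platelet markers 1 was tested and fell.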

Additional observations from a re-analysis of the deposited data

Results flagged for a closer look

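In each genotype the 6 values of a tested member were examined for 1 library standing apart, by Dixon's ratio of the gap to the nearest value over the whole range (95% level). Of 36 such groups 7 held one. The level assumes independent, normal values. Values near 0 with 2 decimals and 1 library shared by several genes do not meet this, so the 7 cannot be set against a rate expected by chance. KO6 was the low library for Cd9 (79.61 FPKM), Tspan3 (16.37 FPKM) and Tspan14 (2.01 FPKM), and KO1 the high one for Tspan8 (1.11 FPKM). Among WT libraries, replicate 6 was high for Tspan17 (0.42 FPKM), and replicate 5 for Tspan2 (1.31 FPKM) and Tspan11 (0.02 FPKM, where the other WT libraries were listed at 0). The direction and call of these 7 genes were the same without the library named.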

How the results depend on the processing

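Over 22 alternatives, 384 of 391 results for tested members kept their direction and side of the threshold, and 14 of the 18 members did so in all that were run. Exceptions were Cd151 (quantile normalization) and Tspan3 (exact rank-sum test), which lost their call, and Cd81 (0.33 without KO6, 0.40 with KO1 to KO4 alone), which gained one. Tspan6, at -0.05 and as low as -0.14 without KO3, turned to 0.16 without KO6, 0.24 with KO1 to KO4 alone and 0.05 with the exact rank-sum test. Below the filter, Tspan13 passed without KO6 and with KO1 to KO4 alone. Cd53 turned to 0.029 and 0.054 in those settings (lowest -0.12, without KO1), and Cd37 (highest 0.046, without WT6) to -0.0035 without WT2, -0.0081 without KO5 and -0.0028 with KO1 to KO4 alone, all at an adjusted p of 1. The cause was not tested.

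Members called higher numbered 9 to 10 and those called lower 7 when single libraries were left out, and 2 to 3 of those below the filter passed. A filter of 5 FPKM left 4 called lower in place of 7, with fewer genes tested. Of all tested genes, 3457 were higher and 4140 lower with quantile normalization, against 3858 and 3657, and the median of all genes moved by less than 0.1 under each scaling. Higher integrins numbered 2, but 4 with no filter and 1 with quantile normalization or the rank-sum test. With no filter 6 smooth muscle markers were higher in place of 2, 4 epithelial and mesothelial in place of 2, and 2 endothelial in place of 0. The 5 FPKM filter left 1 higher gene among tetraspanins outside the rule, immunoglobulin-type partners, the ADAM10 list and leukocyte markers (2 each without it) and 0 of the single uroplakin and platelet calls and of the 2 higher epithelial and mesothelial ones. Without KO6, 2 smooth muscle markers were lower in place of 0.

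Same-numbered libraries had correlations of deviations from the genotype means of -0.27 to -0.06, and none matched its own number best. The split of KO5 and KO6 from the other KO libraries enters these deviations. The check therefore cannot decide whether replicate numbers pair the libraries. With the replicate block 9 members were higher and 7 lower, as without it, and 6959 genes were called in place of 7515. FPKM without counts gives no interval for members near 0, and no statement is made that such a gene is absent.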

Other observations

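Some members lie next to one another in the genome (GRCm38). Cd82 and Tspan18 are 84.6 kb apart, Tspan32 and Cd81 33.1 kb. Per length these neighbours differed widely in level, with Cd82 at 31.2 FPKM in WT and Tspan18 at 0 to 0.01, and Cd81 at 70.5 and Tspan32 at 0.04 to 0.16. The ratio of Tspan4 to its neighbour Cd151 was 0.949 to 1.01 in the WT libraries, 1.27 to 1.31 in KO1 to KO4, and 1.15 and 1.03 in KO5 and KO6. KO6 thus held both genes near their WT ratio, whereas its ratio of Cd63 to Cd9 was that of the other KO libraries.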
